A study of Mus musculus with 16 samples.

Results

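The genes of the natriuretic peptide system were described across the left ventricle and subcutaneous white adipose tissue (scWAT) of mice with or without a deletion of HuR in adipocytes. The set held 8 of the 33641 genes listed in each table and was fixed by gene symbol. It comprised the peptide genes Nppa, Nppb and Nppc, the processing proteases Corin and Furin, and the receptor genes Npr1, Npr2 and Npr3. HuR, the product of Elavl1, binds RNA and stabilises many messenger RNAs. All mice were of the C57BL/6J strain and 28 weeks old, and they were labelled wild-type or Adipo-HuR KO, the latter called labelled knockout below. The promoter that drives the deletion was not given in the sources used here. For heart there were 4 wild-type mice (A5, A7, A8, A14) and 4 labelled knockout (A25, A29, A30, A31). For scWAT there were 5 wild-type mice (A5, A7, A8, A12, A14) and 3 labelled knockout (A24, A26, A30). The 16 libraries came from 11 mice, so the spread within a group is spread between animals.

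Natriuretic peptides are hormones that the heart releases when its walls are stretched. They are made as precursors that are cut by the membrane protease corin or by the furin protease, and they act on membrane guanylyl cyclases that raise cyclic GMP. In the kidney and vessels this lowers salt load and pressure, and in human fat cells it starts lipolysis. Lipolysis was not measured in these mice. A receptor without cyclase activity, encoded by Npr3, takes the peptides up and clears them, and fat is a tissue known for it.

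Values are TPM, a measure of transcript abundance that is scaled for gene length and to the same total in every library, so that levels can be compared between genes but the number of reads is unknown. Mitochondrially encoded transcripts took 43.4% to 60.6% of the TPM of the hearts and 6.14% to 14.4% of scWAT. The heart A29 is labelled knockout, yet its values were like those of wild-type mice for the genes that set A25, A30 and A31 apart, so heart results are given with and without it. The targeted gene Elavl1 was not lower in scWAT labelled knockout (36.2 to 42.9 TPM) than in wild-type scWAT (19.0 to 34.5 TPM). These values thus do not show the deletion that the label names. A value per gene cannot show whether exons were lost, and in whole fat it includes cells other than adipocytes. Every direction below is therefore between labels. The cardiomyocyte marker Myh6 stood at 1012 TPM or more in every heart and at no more than 0.146 TPM in scWAT, while Adipoq stood at 3300 TPM or more in every scWAT library and at no more than 1.72 TPM in heart.

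Nppa and Nppb lie next to each other on chromosome 4, and the windows before their transcription start sites are shown because both genes were heart-restricted and moved together across hearts. The sequences are from RefSeq (GRCm38.p6), which held a promoter for 8 of the 8 genes. Capitals mark matches on either strand to 4 short motifs known from cardiac promoters: GATAA (a core of GATA factor sites), AAGTG (a core of NKX2-5 sites), CATTCC (the M-CAT element) and TATAAA (the TATA box). The 250 bases before the Nppa start are given whole, and of Nppb a stretch of 30 bases that begins 105 bases before its start.
Nppa, chr4:148000472-148000721, plus strand: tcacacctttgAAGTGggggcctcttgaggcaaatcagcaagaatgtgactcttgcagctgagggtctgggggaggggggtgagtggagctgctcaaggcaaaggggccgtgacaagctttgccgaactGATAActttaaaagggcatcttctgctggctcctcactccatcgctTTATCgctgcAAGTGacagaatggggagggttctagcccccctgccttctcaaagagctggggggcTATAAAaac
Nppb, chr4:147985795-147985824, plus strand: GGAATGcagctGATAAatcagaGATAAccc
In the Nppa window GATAA occurred 2 times, AAGTG 2 times and TATAAA 1 time, 9 bases before the annotated start, and CATTCC was not found. In the Nppb window GATAA occurred 2 times, CATTCC 1 time on the minus strand and TATAAA 1 time, 31 bases before the start, and AAGTG was not found. Windows of the same length before all 32851 listed starts held GATAA in 22.6%, AAGTG in 40.7%, CATTCC in 12.6% and TATAAA in 12.4%. No match to these letters was found in the windows of Npr1, Npr2, Npr3 or Corin. A window of Furin, a gene found in both tissues, held AAGTG 4 times and TATAAA 1 time, and another Furin window held none. The Nppc window held TATAAA 1 time. A match is a description of the letters in the window.

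In wild-type mice the 2 tissues held different parts of the system. Nppa, Nppb and Corin were found in heart, and Npr3 was mostly found in fat. Npr1 and Npr2 were found in both tissues, and Nppc was near 0 in both. Nppa, which encodes atrial natriuretic peptide, had 108 TPM in the wild-type heart A5, 121 in A7, 313 in A8 and 159.5 in A14, and its highest value in wild-type scWAT was 0.360 TPM. Nppb, which encodes brain natriuretic peptide, had 39.3, 101, 98.6 and 128 TPM in the same hearts, was listed at 0 in 4 wild-type scWAT libraries and had 0.157 TPM in the other (A8). Corin, the membrane protease that cuts the atrial peptide's precursor, had 33.4, 49.3, 58.6 and 54.9 TPM in the hearts and never more than 0.0412 TPM in wild-type scWAT. These 3 genes were thus at or near 0 in fat.

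The clearance receptor gene Npr3 had the opposite pattern. In wild-type scWAT it reached 582 TPM in A5, 542 in A7, 372 in A8, 553 in A12 and 281 in A14. In the wild-type hearts A5, A7, A8 and A14 it had 2.16, 1.88, 2.40 and 3.905 TPM. Every scWAT library was above every heart library, and the gap between them exceeded the SD within either tissue. The group means were 466 ± 132 TPM (SD, n = 5) in scWAT and 2.59 ± 0.903 TPM (n = 4) in heart.

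Differences were tested with limma on log2(TPM + 1), a scale that understates the change of genes near 0. Because TPM is relative, the median difference of all tested genes, -1.22 for wild-type heart minus scWAT, was subtracted from each log2 value given for this comparison, while the tests used the values before that step. On this scale heart was above scWAT by 8.37 for Nppa (SE 0.27, limma adjusted p = 2.9e-10), by 7.59 for Nppb (SE 0.28, limma adjusted p = 1.1e-09) and by 6.79 for Corin (SE 0.18, limma adjusted p = 7.9e-11). Npr3 differed by -5.78 (SE 0.24, limma adjusted p = 1.2e-10). Calls higher in heart made up 8.55% of the 13727 genes tested, and calls higher in scWAT 77.7%. The 3 members called higher in heart were Nppa, Nppb and Corin, and the 4 called higher in scWAT were the 3 receptor genes and Furin.

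The 2 cyclase receptor genes and Furin depended on the scaling. Npr1, which encodes the receptor of the atrial and brain peptides, had a mean of 23.9 ± 5.99 TPM (SD, n = 5) in wild-type scWAT and 7.44 ± 3.18 TPM (n = 4) in wild-type heart. Npr2, which encodes the receptor of C-type natriuretic peptide, had means of 40.5 ± 6.28 and 16.4 ± 6.70 TPM, and Furin had means of 49.5 ± 8.69 and 24.8 ± 8.33 TPM in the same order. All 3 passed toward scWAT on TPM as deposited (limma adjusted p = 0.00021, 0.00075 and 0.0017), yet relative to the median gene their differences were -0.41 for Npr1, -0.14 for Npr2 and 0.20 for Furin. With median-of-ratios scaling, Npr1 and Npr2 did not pass (limma adjusted p = 0.261 and 0.765) and Furin was higher in heart (0.47 relative to the median gene, limma adjusted p = 0.015). Since 77.7% of all genes were called toward scWAT, calls in that direction on deposited TPM say little about these 3 genes in particular. Nppa, Nppb, Corin and Npr3 kept their direction and call under all 19 alternatives run for this comparison.

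Nppc, which encodes C-type natriuretic peptide, was below 1 TPM in all 16 libraries and was not tested. Its range was 0.0267 to 0.0811 TPM in wild-type hearts, it had 0.0230 TPM in A25, and it was listed at 0 in A29, A30 and A31. In scWAT it was listed at 0 in the 5 wild-type libraries and had 0.189 TPM in A24, 0.0299 in A26 and 0.440 in A30. With the number of reads unknown, levels this low cannot be weighed.

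By level, the 7 other genes in wild-type heart ran from Nppa (mean 176 TPM) through Nppb (91.7), Corin (49.0), Furin (24.8), Npr2 (16.4) and Npr1 (7.44) to Npr3 (2.59). The ranges of neighbours in this order overlapped, except those of Corin and Furin, where the lowest Corin value (33.4 TPM) lay above the highest Furin value (30.9 TPM). In wild-type scWAT the order was Npr3 (466), Furin (49.5), Npr2 (40.5) and Npr1 (23.9). There the ranges of Furin and Npr2 overlapped, and those of Npr3 and Furin and of Npr2 and Npr1 did not.

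The heart comparison asks how the left ventricle differed between mice with and without the label. Among hearts labelled knockout, Nppa reached 6980.4 TPM in A25, 5021 in A30 and 5380.4 in A31, whereas A29 with 52.7 TPM was the lowest of the 8 hearts. Nppb reached 847 TPM in A25, 594 in A30 and 691 in A31, whereas A29 had 54.5 TPM, and among all hearts only the wild-type A5 was lower. For both genes 3 of 4 hearts labelled knockout were above every wild-type heart and A29 lay in or below the wild-type range, so the groups overlapped.

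**Figure D1:**
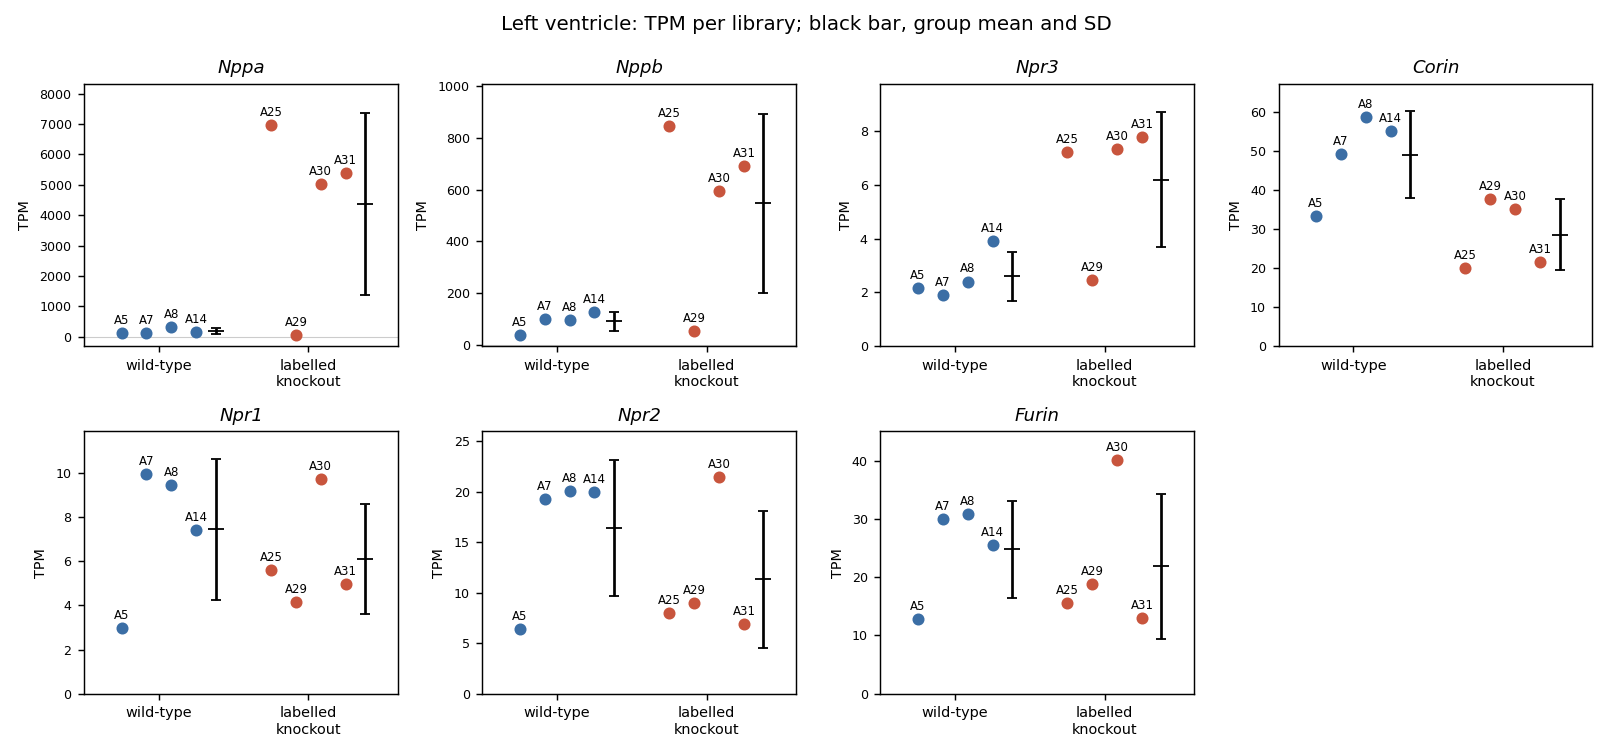
TPM of 7 genes (1 panel each, linear axis from 0) in the 8 left ventricle libraries; each point is 1 library with its mouse number, and the black bars give the group mean and SD (n = 4). Nppa, Nppb and Npr3 are high in A25, A30 and A31 and within or below the wild-type range in A29, whereas Npr1, Npr2 and Furin are low in A5, A25, A29 and A31.

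Npr3, the clearance receptor gene, had 7.20 TPM in A25, 7.32 in A30, 7.77 in A31 and 2.44 in A29, against 1.88 to 3.905 TPM in wild-type hearts. Corin had 20.01 TPM in A25, 35.05 in A30, 21.4 in A31 and 37.7 in A29. For Corin, A25 and A31 were below all 4 wild-type hearts, and A29 and A30 were above the wild-type heart A5 (33.4 TPM). After the mitochondrially encoded genes were removed and TPM rescaled, Corin had 37.2 TPM in A25, 61.95 in A30 and 41.9 in A31, while A29 (85.01 TPM) lay at the lower end of the wild-type range of 84.6 to 122 TPM.

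With all 8 hearts, none of the 7 tested members passed the threshold of 0.05, and 0.0501% of the 11981 genes tested did. Relative to the median of all tested genes (0.26), the log2 fold change of labelled knockout over wild-type was 3.21 for Nppa (SE 1.28, limma adjusted p = 0.152), 1.88 for Nppb (SE 0.75, limma adjusted p = 0.149), 0.68 for Npr3 (SE 0.33, limma adjusted p = 0.149) and -1.04 for Corin (SE 0.27, limma adjusted p = 0.144). These 4 of 7 genes had an unadjusted p under 0.05, as did 24.6% of all genes tested. None of the 7 had groups that did not overlap, against 4.35% of all genes tested.

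Without A29, the median of all tested genes was 0.39, and 34.8% of the 12081 genes tested were called higher and 4.16% lower in hearts labelled knockout. Of the 7 members, 3 were called higher and 1 lower, so the higher share was close to the background. A29 was set apart after its Nppa, Nppb and Npr3 values had been seen, so the p-values without it are not independent of those values. Relative to the median gene, Nppa rose by 4.77 (SE 0.32, limma adjusted p = 7.9e-06), Nppb by 2.66 (SE 0.34, limma adjusted p = 0.00016) and Npr3 by 0.87 (SE 0.22, limma adjusted p = 0.0019). Corin fell by 1.32 (SE 0.25, limma adjusted p = 0.015). By p-value Nppa ranked 38 of 12081 genes, and Corin 3191.

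**Figure D2:**
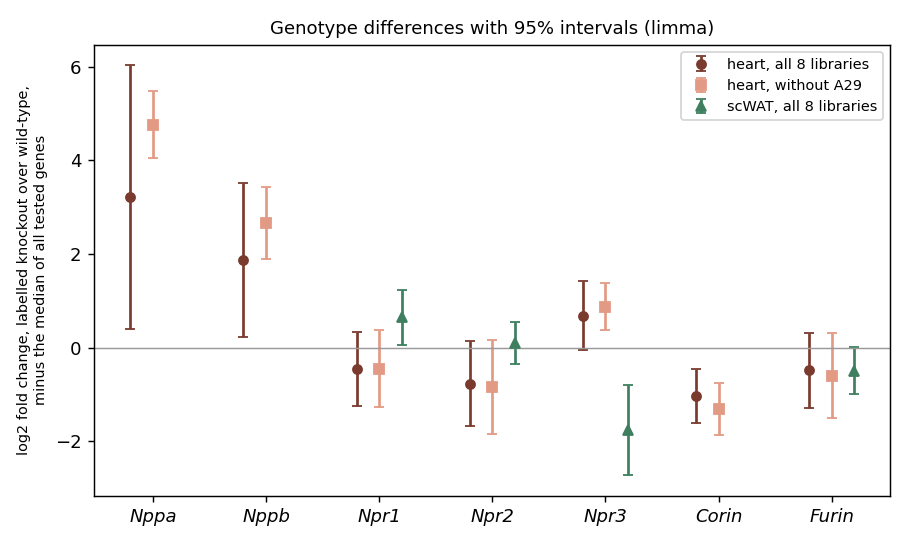
Log2 fold change of labelled knockout over wild-type, minus the median of all tested genes, with 95% intervals from limma, for 7 genes in heart with all 8 libraries (circles) and without A29 (squares), and for 4 genes in scWAT (triangles). Leaving out A29 moves Nppa from 3.21 to 4.77 and Nppb from 1.88 to 2.66. The value of Npr3 is above 0 in heart and below 0 in scWAT, and its heart interval with all 8 libraries (-0.05 to 1.41) includes 0.

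The 2 heart peptides did not differ to the same extent. The ratio of Nppa to Nppb was 2.76, 1.20, 3.18 and 1.25 in the wild-type hearts A5, A7, A8 and A14. It was 8.25, 8.45 and 7.78 in A25, A30 and A31, and 0.966 in A29. The 3 ratios were close to each other and above every wild-type ratio, and A29 had the lowest of all. The ratio is taken within a library and does not move with the scaling of TPM.

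Npr1, Npr2 and Furin separated the hearts in another way. Npr2 had 6.39, 19.3, 20.1 and 19.998 TPM in the wild-type hearts A5, A7, A8 and A14, and 7.99, 9.02, 21.4 and 6.91 TPM in the hearts A25, A29, A30 and A31. Furin, which cuts many precursors besides the natriuretic ones, had 12.8, 29.96, 30.9 and 25.5 TPM in the first 4 hearts and 15.6, 18.8, 40.1 and 13.02 TPM in the last 4. Npr1 had 2.96, 9.93, 9.43 and 7.43 TPM in the first 4 and 5.60, 4.16, 9.73 and 4.96 TPM in the last 4. For these 3 genes A7, A8, A14 and A30 were high, and A5, A25, A29 and A31 were low, a split that crossed the labels.

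None of the 3 passed between the labels. The log2 fold change relative to the median gene was -0.46 for Npr1 (95% interval -1.24 to 0.33, limma adjusted p = 0.742), -0.77 for Npr2 (-1.68 to 0.14, limma adjusted p = 0.447) and -0.49 for Furin (-1.30 to 0.32, limma adjusted p = 0.707). Without A29 the 3 genes did not pass either (limma adjusted p = 0.903, 0.453 and 0.709). The intervals include no difference and also a level lowered by more than 1 on the log2 scale.

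**Figure D3:**
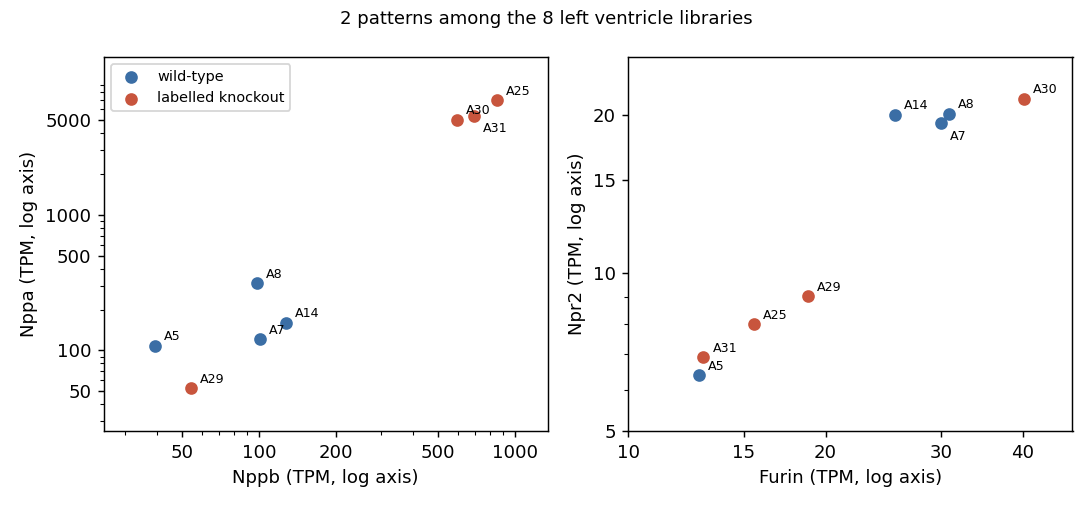
TPM of Nppa against Nppb (left) and of Npr2 against Furin (right) in the 8 left ventricle libraries, both on log axes, each point 1 library with its mouse number. On the left A25, A30 and A31 stand apart from the other 5 hearts, and on the right A5, A25, A29 and A31 stand apart from A7, A8, A14 and A30, so the 2 groups of genes divide the hearts differently.

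Over the 8 hearts, which share the 2 labels and a fixed total of TPM, Pearson's r of log2(TPM + 1) was 0.97 for Nppa with Nppb, 0.93 for Nppa with Npr3 and -0.70 for Nppa with Corin. It was 0.96 for Npr2 with Furin, 0.92 for Npr1 with Npr2 and -0.12 for Nppa with Npr2. These are descriptions of 8 points that fall into separate clusters.

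Genes most like each member over the 8 hearts were the 5 with the highest r among 7398 genes whose mean was 5 TPM or more. Predicted genes (Gm and Rik names), pseudogenes and the members of the set were left out before this count. For Nppa they were Fam207a, Ifitm2, Lgals3 (galectin-3, a lectin abundant in macrophages), Gpx3 (a secreted glutathione peroxidase) and AI413582, with r from 0.991 to 0.995. Lgals3 ranged from 2.57 to 5.63 TPM in wild-type hearts and from 1.67 to 90.4 TPM in hearts labelled knockout. For Nppb they were Gpatch4, Top2a (a topoisomerase of dividing cells), Fam177a, Otulin and Snrpg, with r from 0.993 to 0.995.

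For Npr3 in heart they were Nxt1, RP23-356P21.1, Ufm1, Dnajc2 and Scx (scleraxis, a tendon and fibroblast transcription factor), with r from 0.978 to 0.991. For Corin they were Slc20a2, Twnk (the helicase of mitochondrial DNA), Ralgapa2, Vwa8 and Asb15, with r from 0.993 to 0.997. Slc20a2, a phosphate transporter gene, ranged from 40.4 to 73.2 TPM in wild-type hearts and from 24.97 to 45.1 TPM in hearts labelled knockout. For Npr1 they were Dgkz, Sox13, Sptbn1, Marf1 and Zdhhc1, with r from 0.990 to 0.996.

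Some markers of other cells moved with Nppa and Nppb. The summed TPM of 5 fibroblast markers was 177 to 243 in wild-type hearts, 853, 1008 and 1030 in A25, A30 and A31, and 209 in A29. The summed TPM of 5 macrophage markers was 50.9 to 80.2 in wild-type hearts, 319, 355 and 365 in A25, A30 and A31, and 46.0 in A29. The summed TPM of 5 endocardial markers was 9.64 to 19.3 in wild-type hearts, 35.3, 54.3 and 36.3 in A25, A30 and A31, and 12.3 in A29. The sums of 5 endothelial markers (131 to 266 in wild-type hearts, 241 in A25, 311 in A30, 242 in A31) and of 6 pericyte and smooth muscle markers (233 to 323 in wild-type hearts, 313 in A25, 369 in A30, 339 in A31) did not separate all 3 hearts from the wild-type range. The part of these in the results above was not tested, and in bulk tissue fewer cells of a type cannot be told apart from less RNA per cell.

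Atrial muscle is the main source of Nppa in the adult heart, so atrial markers were examined beside it. The 6 listed atrial markers summed to 13.7 to 17.6 TPM in wild-type hearts and to 12.9 to 17.0 TPM in hearts labelled knockout. In wild-type hearts and hearts labelled knockout the highest values were 0.451 and 1.33 TPM for Myl7 and 0.0410 and 0.138 TPM for Sln. They were 0.0432 and 0.468 TPM for Bmp10, 1.85 and 4.86 TPM for Myl4, and 4.47 and 5.19 TPM for Nr2f2. The ranges of the labels overlapped for each of these genes. Myl4 had 46.5 to 79.1 TPM in wild-type scWAT. Most of the summed level came from Stard10, which ranged from 10.01 to 13.3 TPM in wild-type hearts and from 6.38 to 9.57 TPM in hearts labelled knockout. The highest values of Myl7, Sln, Bmp10, Myl4 and Nr2f2 were in hearts labelled knockout. The part of atrial cells in the Nppa values was not tested. The 7 cardiomyocyte markers summed to 23095 to 32005 TPM in wild-type hearts. They summed to 21589 TPM in A25, 23125 in A30, 16626 in A31 and 29050.0 in A29. As for Corin, A25 and A31 were below every wild-type heart and A29 and A30 were above A5. The part of this in the Corin values was not tested.

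The scWAT comparison asks how fat differed with the label in the tissue where the deletion was to occur. Npr3 had 106 TPM in A24, 76.5 in A26 and 298 in A30, against 281 to 582 TPM in the wild-type libraries given above. A24 and A26 were below all 5 wild-type libraries, and A30 was above 1 of them (A14), so the groups overlapped. Wild-type libraries averaged 466 ± 132 TPM (SD, n = 5), and those labelled knockout 160.4 ± 120.5 TPM (n = 3).

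The log2 fold change of Npr3, relative to a median of 0.03 over all genes, was -1.77 (SE 0.43, 95% interval -2.73 to -0.80), and it did not pass (limma adjusted p = 0.216). It ranked 153 of 13682 genes by p-value. It passed in 2 of 20 alternatives: without A30 it fell by 2.33 (limma adjusted p = 0.020), and in 1 fit over all 16 libraries it fell by 1.77 (limma adjusted p = 0.049). Over the 20 alternatives the limma adjusted p ranged from 0.020 to 0.609. Within the 5 libraries whose deposited tables carry no genotype in their name, 3 wild-type and 2 labelled knockout, it was -1.71 (limma adjusted p = 0.609).

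Npr1 had 23.8 TPM in the wild-type scWAT library A5, 21.1 in A7, 32.1 in A8, 16.03 in A12 and 26.3 in A14. Among libraries labelled knockout it had 46.6 TPM in A24, 25.6 in A26 and 46.1 in A30. A24 and A30 were above every wild-type library and A26 lay within their range. The log2 fold change relative to the median gene was 0.65 (SE 0.26, 95% interval 0.06 to 1.24), which did not pass (limma adjusted p = 0.267). Within the 5 libraries of one naming style it was 0.56 (limma adjusted p = 0.609).

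**Figure D4:**
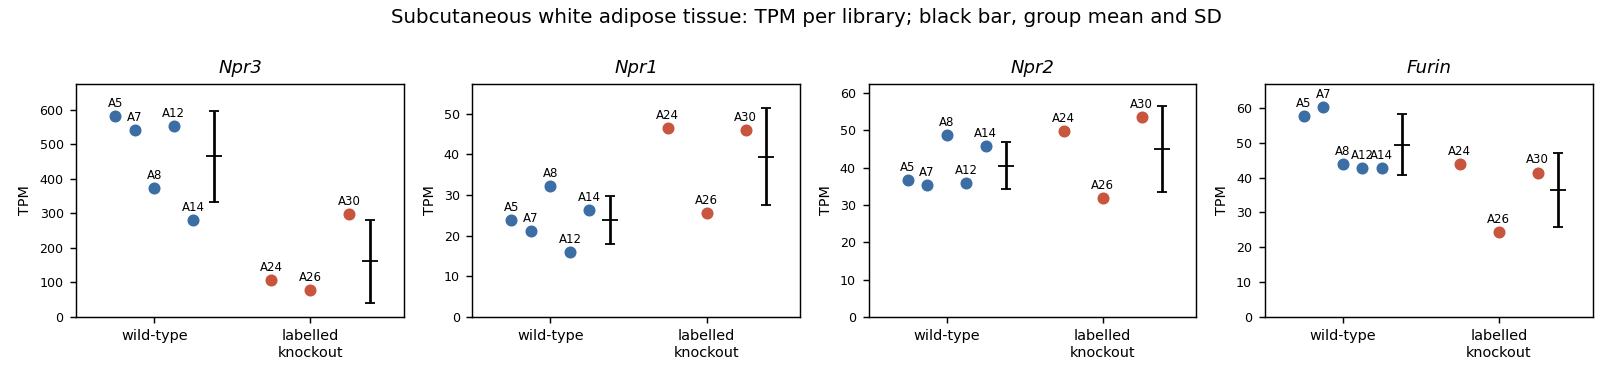
TPM of the 4 genes tested in scWAT (1 panel each, linear axis from 0) in the 8 scWAT libraries; each point is 1 library with its mouse number, and the black bars give the group mean and SD (n = 5 wild-type, n = 3 labelled knockout). Npr3 is lowest in A24 and A26, and Npr1 is highest in A24 and A30.

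Npr2 had 36.7, 35.4, 48.9, 36.02 and 45.7 TPM in wild-type scWAT in the same order, 49.8 TPM in A24, 31.98 in A26 and 53.6 in A30, so the groups overlapped. Its log2 fold change relative to the median gene was 0.10 (95% interval -0.35 to 0.54, limma adjusted p = 0.752). Furin had 57.6, 60.2, 43.97, 42.6 and 42.9 TPM in wild-type scWAT, 43.8 TPM in A24, 24.2 in A26 and 41.5 in A30. Its log2 fold change was -0.49 (95% interval -0.99 to 0.01, limma adjusted p = 0.346). A26 was the lowest library labelled knockout for all 4 of these genes.

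In scWAT 0 of the 4 tested members passed, and 0.0219% of all genes tested did. At an unadjusted p under 0.05 there were 2 of 4 members, Npr3 and Npr1, and 15.6% of all genes. None of the 4 had groups that did not overlap, against 10.3% of all genes tested. The other 4 members were below the mean of 1 TPM that the test required: in scWAT labelled knockout Nppa ranged from 0.213 to 0.353 TPM, Nppb was listed at 0 throughout, and Corin reached 0.0721 TPM at most.

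The balance of the receptors in scWAT was read within each library. Among wild-type libraries the ratio of Npr3 to Npr1 was 24.5 in A5, 25.7 in A7, 11.6 in A8, 34.5 in A12 and 10.7 in A14. It was 2.28 in A24, 2.99 in A26 and 6.48 in A30. The means were 21.4 ± 10.1 (SD, n = 5) and 3.92 ± 2.24 (n = 3), and here the groups did not overlap, although each gene alone did. Npr3 made up 79.6% to 91.4% of the summed TPM of the 3 receptor genes in wild-type scWAT and 52.4%, 57.1% and 75.0% in A24, A26 and A30. These ratios were formed after the values of both genes had been seen and were not tested.

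In heart the same share was 6.07% to 18.8% in wild-type libraries, 34.6%, 19.0% and 39.6% in A25, A30 and A31, and 15.6% in A29. The ratio of Npr3 to Npr1 was 0.732, 0.190, 0.255 and 0.525 in the wild-type hearts A5, A7, A8 and A14. It was 1.29, 0.753 and 1.57 in A25, A30 and A31, and 0.586 in A29. Npr2 was the most abundant receptor transcript in all 4 wild-type hearts.

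**Figure D5:**
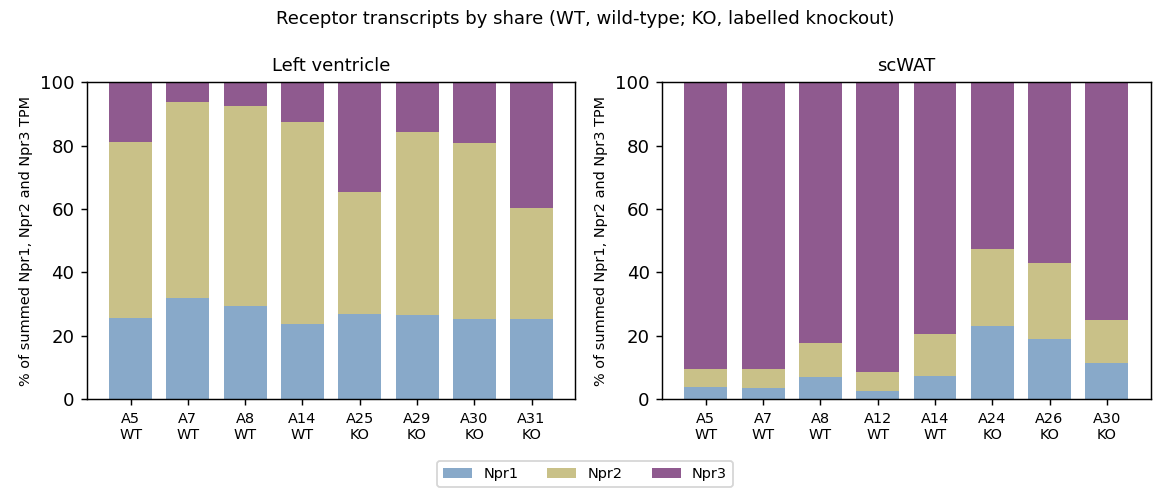
Share of the summed TPM of Npr1, Npr2 and Npr3 held by each gene, in percent, in 8 left ventricle libraries (left) and 8 scWAT libraries (right), 1 stacked bar per library. Npr3 takes 79.6% to 91.4% of the bar in wild-type scWAT and 52.4% to 75.0% in scWAT labelled knockout, and in heart its share is highest in A25 (34.6%) and A31 (39.6%).

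Markers of other cells in the dissected fat varied between libraries. The summed TPM of 6 pericyte and smooth muscle markers was 539 in A5, 419 in A7, 301 in A8, 457 in A12 and 298 in A14, and 180.5 in A24, 109 in A26 and 325 in A30. As for Npr3, A24 and A26 were below all 5 wild-type libraries, whereas A30 was above both A8 and A14. The markers differed: Acta2 ranged from 129 to 359 TPM in wild-type scWAT and from 31.7 to 157 TPM in scWAT labelled knockout. In the same order Pdgfrb ranged from 12.1 to 26.7 and 14.1 to 26.2 TPM. Myh11 ranged from 7.83 to 11.4 and 5.83 to 14.4 TPM, and Abcc9 from 7.35 to 15.6 and 8.52 to 16.9 TPM. Rgs5 ranged from 64.1 to 144.8 and 43.1 to 107.4 TPM, and Kcnj8 from 6.84 to 12.5 and 5.09 to 9.40 TPM. Like Acta2, both reached lower values with the label. The summed TPM of 6 skeletal muscle markers was 1.09 to 406 in wild-type scWAT, 2119 in A24, 140 in A26 and 4019 in A30, so the groups overlapped. The summed TPM of 4 B cell markers was 415 in A26 and no more than 18.8 in the other 7 libraries, and that of 4 T cell markers was 195 in A26 and no more than 6.42 elsewhere. The 5 adipocyte markers summed to 32946 to 52623 TPM in wild-type scWAT and to 35701 to 46990.0 TPM in scWAT labelled knockout. Most of that sum was Fabp4, with 20854 to 38928 and 24384 to 36272 TPM in the same order. The other markers had lower ranges with the label. Adipoq had 3956 to 6920 and 3300 to 5665 TPM, and Plin1 had 1569.5 to 2277 and 1154 to 1939.5 TPM. Cidec had 3675.6 to 3955 and 3176.5 to 3517.5 TPM, and Lep had 764 to 2440 and 473 to 843 TPM. The part of these in the Npr3 and Npr1 values was not tested.

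Genes most like Npr3 over the 8 scWAT libraries were taken in the same way from 10088 genes. They were Prr32, Klhl5, Cdr2, Syp (synaptophysin) and Rragc (a GTPase of nutrient sensing), with r from 0.986 to 0.998. Prr32 ranged from 43.2 to 87.98 TPM in wild-type scWAT and from 9.81 to 42.4 TPM in scWAT labelled knockout.

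Whether the difference between labels itself differed between the tissues was tested with an interaction term over all 16 libraries. The median over all genes was 0.24. For Npr3 the heart difference exceeded the scWAT difference by 2.44 relative to that median (SE 0.55, 95% interval 1.26 to 3.61), ranking 22 of 11536 genes, and it did not pass (limma adjusted p = 0.086), with 0.0607% of all genes passing. It passed in 5 of 25 alternatives: without the heart A29 (limma adjusted p = 0.00080), without the scWAT library A30 (0.013), under median-of-ratios scaling (0.047) or quantile normalization (0.048), and when array weights were used (0.00019). Npr1 differed the other way by -1.12 (SE 0.47, limma adjusted p = 0.294), Npr2 by -0.88 (SE 0.50, limma adjusted p = 0.488) and Furin by -0.01 (SE 0.46, limma adjusted p = 0.816), and none of them passed.

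The wider pathway was read from 4 lists. Proteases and peptides that cut, degrade or compete with the natriuretic peptides gave 0 calls among 5 tested of 9 genes in heart and 0 of 6 in scWAT. Dpp4, a membrane protease that trims peptides, had 22.8 TPM in A24, 22.6 in A26 and 22.9 in A30, above its wild-type scWAT range of 4.14 to 14.3 TPM (log2 fold change relative to the median gene 1.23, SE 0.37, limma adjusted p = 0.220). Mme, which encodes neprilysin, the main protease that degrades these peptides, had values of -0.49 in heart (limma adjusted p = 0.594) and -0.36 in scWAT (limma adjusted p = 0.503). Without A29, 1 of 5 was called higher in heart, Dpp4, at 0.33 relative to the median gene (limma adjusted p = 0.0076), a share below the 34.8% of all genes.

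Genes that make, break down or read cyclic GMP gave 0 calls among 14 tested of 18 genes in heart (2 with an unadjusted p under 0.05) and 0 of 17 in scWAT. Pde1a, a phosphodiesterase driven by calcium and calmodulin, ranged from 2.20 to 3.50 TPM in wild-type hearts and had 11.4 TPM in A25, 12.8 in A30, 14.01 in A31 and 2.43 in A29. Its log2 fold change relative to the median gene was 1.15 with all hearts (SE 0.43, limma adjusted p = 0.142). Without A29 it rose by 1.51 (SE 0.20, limma adjusted p = 0.00011), and 5 of 14 genes were called higher and 0 lower, all of them but Vasp being phosphodiesterases: Pde1a, Pde1c, Pde3b and Pde9a. The share of 5 of 14 was near the background of 34.8%.

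Transcription factors known to act on the natriuretic promoters gave 0 calls among 16 tested in heart, with a median of -0.31 relative to all genes, and 0 of 11 in scWAT. Gata4 ranged from 19.4 to 40.98 TPM in wild-type hearts and from 18.98 to 49.3 TPM in hearts labelled knockout. Nkx2-5 ranged from 13.999 to 33.9 TPM and from 17.4 to 41.1 TPM, so the groups of each overlapped. Tbx5, a T-box factor of the ventricle and atria, had a value of -1.03 (SE 0.32, limma adjusted p = 0.174) with all hearts. Without A29, Tbx5 alone of the 16 was called, and it fell by 1.36 relative to the median gene (SE 0.29, limma adjusted p = 0.025), where 4.16% of all genes were called lower. In wild-type mice 8 of the 16 were called higher in heart and 3 higher in scWAT, against 8.55% and 77.7% of all genes tested on TPM as deposited.

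Genes of lipolysis and thermogenesis listed as downstream of cyclic GMP in fat gave 0 calls among 7 in scWAT and 0 of 5 in heart. Ucp1, the uncoupling protein of thermogenic fat cells, had the largest value, 5.01 relative to the median gene in scWAT (SE 0.78, limma adjusted p = 0.099). Its wild-type scWAT range was near 0, at 0.0401 to 1.16 TPM. In scWAT labelled knockout it varied widely, from 8.85 to 186 TPM (mean 88.4 ± 90.1 TPM, SD, n = 3). Lipe, which encodes hormone-sensitive lipase, had -0.32 (limma adjusted p = 0.422) and Plin1 -0.36 (limma adjusted p = 0.477). In heart Ppargc1a, a coactivator of mitochondrial genes, had a value of -1.25 (SE 0.33, limma adjusted p = 0.142). Without A29 it fell by 1.57 relative to the median gene (limma adjusted p = 0.016) and was the 1 gene of the 5 called, against 4.16% of all genes called lower.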

How the data were processed

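Per the labels' protocols, Trizol was used to extract RNA from flash-frozen tissue and the library kit was Illumina TruSeq. For each library the authors deposited TPM values by gene symbol, per the file headers. Aligner, quantifier, annotation and build were not given in the sources used here, so no positions are printed for the measured genes. Read depth is unknown. An annotated antisense gene overlaps Nppa, and without a statement on strand the reads of the pair cannot be told apart.

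Groups came from the labels. Values were analysed as log2(TPM + 1) with limma 3.58.1 in R 4.3.3 (eBayes with a trend). Genes whose mean was 1 TPM or more were tested, 2-sided, with Benjamini-Hochberg adjustment over all tested genes and a threshold of 0.05. Alternatives changed the pseudocount (0.25 or 5), the filter (none or 5 TPM), the scaling, the weights and the libraries used, each library being left out in turn. The code was tested on simulated data. Fold changes are given minus the median of all tested genes, and tests used them before that step. The genes, lists and alternatives were chosen with earlier results of these data known. All 8 genes were always named, and from each pathway list up to 4 genes with the smallest p could be named. Lgals3, Slc20a2, Prr32, Gata4, Nkx2-5, Vasp and Pde3b were named after their values were seen. The list of cyclic GMP genes held 19 symbols, of which 18 were in the tables. The genes most like Npr1 in scWAT are not reported here.

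Same-numbered wild-type hearts and scWAT came from the same mice, per the titles. Their deviations from the group means correlated at 0.04 (A5), 0.02 (A7), 0.11 (A8) and 0.10 (A14) over 13727 genes.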

Additional observations from a re-analysis of the deposited data

Results flagged for a closer look

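Among 18 groups of 4 or 5 libraries examined, 3 held a library far from the others, where chance gives about 1 in 20 for independent groups. The groups share libraries and hold genes that move together, so the count cannot be weighed against that rate. Npr2 in wild-type hearts was lowest in A5 at 6.39 TPM, with a gap to the next heart of 0.94 of the group's range. Npr2 in hearts labelled knockout was highest in A30 at 21.4 TPM. Npr3 in hearts labelled knockout was lowest in A29 at 2.44 TPM.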

How the results depend on the processing

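Depth is unknown, and genes near 0 TPM rest on few reads. Members called in heart numbered 0 with all libraries, 7 with array weights, 2 in 1 fit over all 16 libraries (Nppb and Corin) and 0 to 4 when each library was left out, 4 without A29. Over all genes the heart calls were 6, and they were 11 with no filter, 2 with a filter of 5 TPM, 7885 with array weights, 846 in the fit over all 16 libraries and 3 to 4705 when each library was left out, the last without A29. In scWAT 1 member (Npr3) was called in the fit over all 16 libraries and 0 to 1 when each library was left out, 1 without A30. Over all genes the scWAT calls were 3, and they were 6 with no filter, 1 with a filter of 5 TPM, 5 under median-of-ratios scaling, 5 under quantile normalization, 80 with array weights, 179 in the shared fit, 0 among tables of 1 naming style (877 at an unadjusted p under 0.05 by limma) and 2 to 130 when each library was left out (130 without A26). For the interaction of tissue and label 0 members were called, 1 under median-of-ratios scaling, 1 under quantile normalization, 3 with array weights and 0 to 1 when each library was left out. Over all genes that count was 7, and it was 11 with a pseudocount of 5, 17 with no filter, 3 with a filter of 5 TPM, 214 and 216 under median-of-ratios scaling and quantile normalization, 17 without mitochondrially encoded genes, 5263 with array weights and 5 to 2863 when each library was left out. The cause of these moves was not tested.

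Values near 0 relative to the median gene changed sign. Npr2 in scWAT ranged from -0.03 (without A30) to 0.32 when each library was left out. For wild-type heart minus scWAT, Furin was -0.14 with a pseudocount of 5 and -0.61 with no filter, and Npr2 was 0.03 with a pseudocount of 0.25, 0.04 with a filter of 5 TPM, 0.11 under median-of-ratios scaling, 0.08 under quantile normalization, 0.03 without mitochondrially encoded genes, 0.12 with array weights and -0.25 to 0.10 when each library was left out, the last without the heart A5. For the interaction of tissue and label, Furin was 0.08 with a pseudocount of 5, 0.20 with no filter and -0.27 to 0.20 when each library was left out.

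With the mouse as a replicate block, the wild-type tissue comparison called 7 members and 11900 genes, against 7 and 11835 without it. The blocked fit left out scWAT A12, which has no heart library. Without A12 and without the block, 7 members and 11911 genes were called. With the mouse as a block over all 16 libraries, the interaction of tissue and label called 0 members and 7 genes. The replicate block changed no member's call.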

Other observations

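Osteocrin (Ostn), a secreted ligand that occupies the clearance receptor encoded by Npr3, was too low to be tested in heart. It ranged from 0.0214 to 0.0929 TPM in wild-type hearts and had 0.832 TPM in A25, 0.997 in A30, 1.46 in A31 and 0.0301 in A29. In scWAT the highest wild-type value was 0.101 TPM, and A30 had 0.494 TPM. In heart the same 3 libraries were high as for Nppa, Nppb and Npr3.

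Genes beside Nppa and Nppb on chromosome 4 did not pass between the labels in heart. Plod1, a lysyl hydroxylase gene, had a log2 fold change of 0.08 relative to the median gene (limma adjusted p = 0.468), and Clcn6, a chloride transporter gene, had -0.42 (limma adjusted p = 0.776). Without A29 the values relative to the median gene were 0.18 for Plod1 and -0.35 for Clcn6. The tests used the values before the median was subtracted, 0.57 for Plod1 (limma adjusted p = 0.057) and 0.04 for Clcn6 (limma adjusted p = 0.928). The levels of Plod1 were 22.7 to 35.2 TPM in wild-type hearts and 21.7 to 54.4 TPM in hearts labelled knockout.

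The split of the hearts by Npr2 and Furin was shared with other genes, taken as the 5 with the highest r for each after the values of Npr2 and Furin had been seen. For Npr2 they were Mical3, Eps15l1, Arfgef1, Ube2o and Carm1 (r from 0.995 to 0.997), and for Furin they were Obsl1, Smarca4, Ywhag, Sh2b1 and Sbf1 (r from 0.992 to 0.996). Mical3 ranged from 9.67 to 31.9 TPM in wild-type hearts and from 11.04 to 37.03 TPM in hearts labelled knockout. The share of mitochondrial transcripts was 60.6% in A5, 46.2% in A25, 55.7% in A29 and 48.9% in A31, the hearts low in Npr2, and 53.0%, 51.9%, 53.2% and 43.4% in A7, A8, A14 and A30. The 2 sets of percentages overlap.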
